A study of Mus musculus with 6 samples.

Results

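The cells described here had RNA of contractile protein genes while they were kept in proliferation medium. They were chosen by 7 genes of the contractile apparatus: Myl4, Tnnc1, Tnnc2, Actc1, Acta1, Myh3 and Mylpf. A cell was a member when the unique molecular identifiers (UMIs, tags that let copies of an RNA molecule be counted once) of these genes came to 20 or more per 10000 UMIs of the cell. At least 4 of the 7 genes also had to have a UMI. Of 61675 kept cells in 6 samples, 5259 were members, and the other cells of the same sample serve as the comparison.

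The samples were mouse muscle-derived stem/progenitor cells (MDSPCs), which are enriched from digested skeletal muscle because they attach slowly to collagen-coated plastic. The labels call 3 populations young and 3 old, and each was grown in serum-rich proliferation medium and profiled by droplet 3′ single-cell RNA sequencing. No treatment, genotype, strain, sex or age in figures is given in the labels, which number the populations as biological replicates 1 to 3 of each group. All cells of a sample come from the same cultured population.

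Skeletal muscle forms when proliferating progenitors that carry Pax7 and Myf5 switch on Myod1 and then Myog, leave the cell cycle and become myocytes. Myocytes build sarcomeres, the repeating units in which myosin thick filaments pull on actin thin filaments between Z discs, and fuse into myotubes through the membrane proteins myomaker (Mymk) and myomixer (Mymx). Embryonic and cardiac isoforms of contractile proteins are made first and are replaced later. In culture this programme is usually started by withdrawing serum.

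The share of members differed widely between samples of the same age group. In young replicates 1, 2 and 3, 216 of 8674, 685 of 10806 and 93 of 10782 kept cells were members, or 2.49%, 6.34% and 0.863%. In old replicates 1, 2 and 3, the counts were 35 of 10147, 497 of 8725 and 3733 of 12541, or 0.345%, 5.70% and 29.8%. Old replicate 3 alone held 71.0% of all members, and the lowest share, in old replicate 1, belonged to the same age group. The Wilson 95% intervals, which cover counting error only, ran from 0.248% to 0.479% in old replicate 1 and from 29.0% to 30.6% in old replicate 3. The means were 3.23% ± 2.81 in young and 11.9% ± 15.7 in old samples (SD, n = 3 each; two-sided exact permutation test, p = 0.7, smallest possible p 0.1). Without old replicate 3 the old mean was lower than the young mean, by 0.21 percentage points (-0.21).

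**Figure D1:**
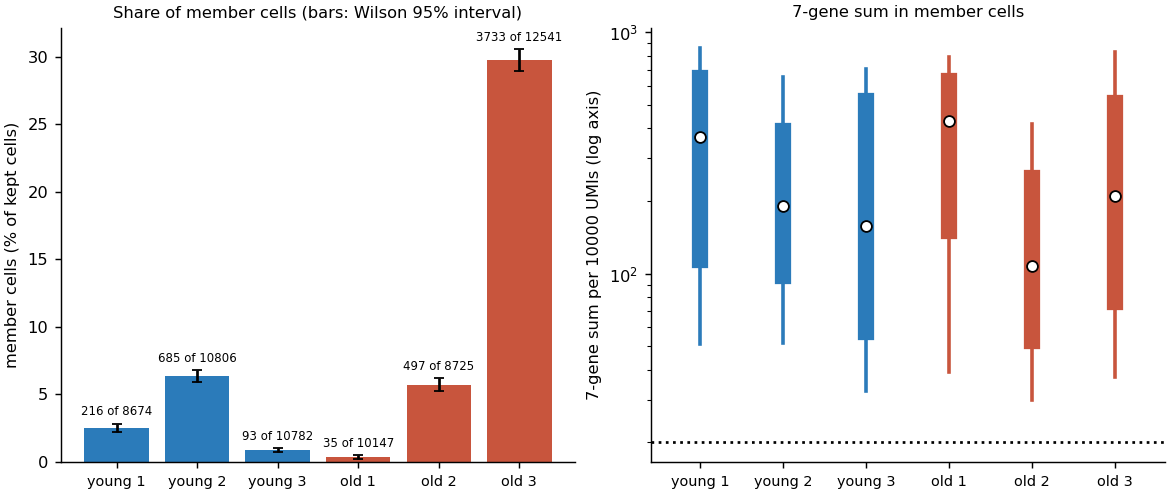
The left panel shows the percentage of kept cells that were members in each of the 3 young and 3 old samples, with Wilson 95% intervals, and the right panel shows the 7-gene sum per 10000 UMIs of the members on a log axis (circle, median; thick line, interquartile range; thin line, 10th to 90th percentile; dotted line, the limit of 20). Old replicate 3 stands at 29.8% and old replicate 1 at 0.345%, whereas the median sums of the members lie between 108 and 430 in all samples.

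Most members lay far above the limit. Their median 7-gene sum was 369, 191 and 157 per 10000 UMIs in young replicates 1 to 3 and 430, 108 and 209 in old replicates 1 to 3. Old replicate 1, with the fewest members, thus had the highest median and old replicate 2 the lowest. All 7 genes were detected in 2523 members, and exactly 4 were detected in 863. Just inside the limit, at 20 to 25 per 10000 UMIs, there were 175 members, and just outside it, at 15 to 20 with 4 or more genes, there were 173 cells. Myog, the transcription factor that marks commitment to differentiation, had a UMI in 80.0% and 80.4% of these 2 sets. A further 1349 cells reached a sum of 20 with 3 or fewer of the genes, and 82.7% of them had a Myog UMI.

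Depth differed between members and other cells in both directions. The median member had 10377, 17202 and 10624 UMIs in young and 12090, 21363 and 13549 in old samples, compared with 13778, 16410 and 15697, and 13507, 19832 and 12812 in other cells. Members were deeper in 3 samples and shallower in the other 3 (exact sign-flip permutation test over the 6 samples, p = 0.406). Cells with very many UMIs, which could be droplets with more than 1 cell, were kept, and no doublet caller was run. Leaving out cells above 2 times the median UMIs of their sample moved the share of members to between 0.356% and 28.5%. Any pair of libraries shared 23 to 35 cell barcodes among kept cells.

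Mylpf and Acta1 made up most of the 7-gene sum. Mylpf encodes the fast skeletal myosin regulatory light chain. It was at 157, 137 and 74.0 UMIs per 10000 in members of young replicates 1 to 3 and at 142, 82.7 and 155 in old replicates 1 to 3. It supplied between 34.5% and 50.2% of the sum in every sample. Acta1, the skeletal α-actin, was at 54.2, 79.6 and 39.7 in young and 66.5, 42.2 and 56.7 in old members. The cardiac α-actin Actc1, which is the early actin of developing muscle, was lower, at 13.5, 9.72 and 30.6 in young and 15.7, 3.31 and 15.3 in old members. Young replicate 3 therefore had the lowest Acta1 and the highest Actc1.

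The 2 troponin C genes encode the calcium sensor of the thin filament. Tnnc1, the slow and cardiac form, was at 52.1, 17.7 and 27.5 in young and 51.6, 18.4 and 41.3 in old members. Tnnc2, the fast form, was at 11.2, 15.1 and 6.94 in young and 9.26, 2.88 and 17.9 in old members. Myl4, the embryonic and atrial light chain, spanned 8.34 in young replicate 2 to 41.3 in young replicate 1. Myh3, the embryonic myosin heavy chain, was the lowest of the 7 in young replicates 1 and 2 and old replicate 3, at 8.06, 5.94 and 4.60, and reached at most 13.6, in old replicate 1. These levels are UMIs at the 3′ end of each transcript and are not corrected for capture. They chose the cells, so they are given without a test.

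Pooled over all other cells of a sample, the same transcripts were at a low level that moved with the share of members. Their pooled 7-gene sum was 0.621, 2.46 and 0.232 per 10000 UMIs in young replicates 1 to 3 and 0.211, 1.05 and 7.84 in old replicates 1 to 3. A UMI of Mylpf was present in 15.5%, 37.1% and 11.3% of other cells in young and in 6.49%, 25.3% and 79.8% in old samples. In old replicate 3, only 9.28% of other cells lacked all 7 genes, compared with 48.5% to 81.3% elsewhere. The other cells include those that reached a sum of 20 with 3 or fewer of the genes, so the low level is not that of each cell. There were 47, 350 and 6 of these in young replicates 1 to 3 and 6, 54 and 886 in old replicates 1 to 3. The parts that these cells and RNA free in the droplets have in the pooled values were not tested.

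**Figure D2:**
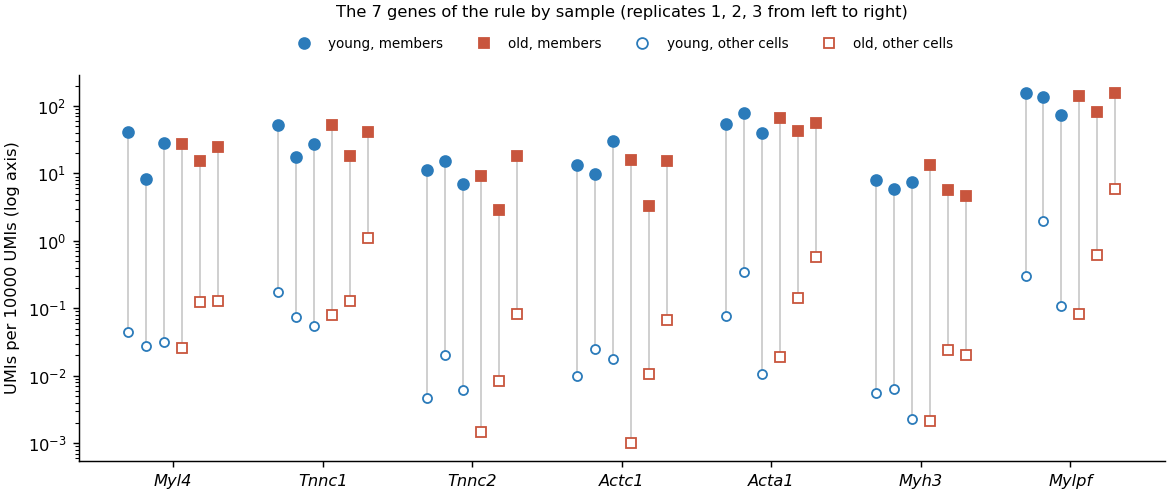
UMIs per 10000 UMIs on a log axis for each of the 7 genes, pooled over members (filled) and over other cells (open) of each sample, with young samples as circles, old samples as squares and a grey line joining the 2 values of a sample. Mylpf has the highest member level in every sample, from 74.0 to 157, and old replicate 3 has the highest Mylpf level in other cells, at 5.88.

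The 7 genes lie on 5 chromosomes in GRCm38 (GENCODE M21). Tnnc2 (164777161 to 164779967) and Actc1 (114047282 to 114053548) are on chromosome 2, and Mylpf (127208890 to 127214298) is on chromosome 7. Acta1 (123891769 to 123894751) is on chromosome 8, Myh3 (67078300 to 67102291) and Myl4 (104550663 to 104595753) are on chromosome 11, and Tnnc1 (31208312 to 31211729) is on chromosome 14. The regulatory sequence upstream of such genes is known for E-boxes, which bind Myod1 and Myog, for CArG boxes, which bind serum response factor, and for MEF2 boxes. The 250 bases before the RefSeq start (GRCm38.p6) were searched for CAGCTG, the CArG box and the MEF2 box, each of which reads the same on both strands; matches of different motifs may overlap.

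All 7 genes had a RefSeq window. CAGCTG was present in that of Mylpf and Acta1, the CArG box in that of Acta1 and Actc1, and the MEF2 box in none of the 7. Over all 27025 genes of the table, 14.7% had CAGCTG, 1.62% a CArG box and 3.42% a MEF2 box. Of 62 genes on the lists of thick filament, thin filament, Z disc and calcium genes, 43 had a window, and 44.2% of these had CAGCTG, 9.3% a CArG box and 23.3% a MEF2 box. Of 97 S phase and G2/M genes, 78 had a window, and the shares were 10.3%, 5.13% and 2.56%. A match is a run of letters, not a measured site. The windows of Mylpf, Chrng, Acta1 and Actc1 are printed 5′ to 3′ on the strand of the gene, because they hold motifs of the light chain and α-actin genes of the rule and of an acetylcholine receptor gene described below. Capitals mark CAGCTG in the first 2 and the CArG box in the last 2.
Mylpf (chr7:127211358-127211607, plus strand): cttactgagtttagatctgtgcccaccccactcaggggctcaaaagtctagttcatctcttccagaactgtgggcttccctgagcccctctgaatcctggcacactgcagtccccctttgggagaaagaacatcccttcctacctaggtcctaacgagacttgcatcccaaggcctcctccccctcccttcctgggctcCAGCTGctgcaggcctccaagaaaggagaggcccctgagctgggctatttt
Chrng (chr1:87205561-87205810, plus strand): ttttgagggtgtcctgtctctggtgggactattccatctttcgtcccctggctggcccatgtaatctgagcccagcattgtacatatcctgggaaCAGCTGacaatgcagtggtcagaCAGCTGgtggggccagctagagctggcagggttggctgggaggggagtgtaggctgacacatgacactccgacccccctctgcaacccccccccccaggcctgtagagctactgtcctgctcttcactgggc
Acta1 (chr8:123894776-123895025, minus strand): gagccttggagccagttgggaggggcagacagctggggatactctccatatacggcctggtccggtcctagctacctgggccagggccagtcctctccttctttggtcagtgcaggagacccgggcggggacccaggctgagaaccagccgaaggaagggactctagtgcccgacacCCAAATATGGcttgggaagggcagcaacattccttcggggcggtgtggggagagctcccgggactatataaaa
Actc1 (chr2:114052876-114053125, minus strand): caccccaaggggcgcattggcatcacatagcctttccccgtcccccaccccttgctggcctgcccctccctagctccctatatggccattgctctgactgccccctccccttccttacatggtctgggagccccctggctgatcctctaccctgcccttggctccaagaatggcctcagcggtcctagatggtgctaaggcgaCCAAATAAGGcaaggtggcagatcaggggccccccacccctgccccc

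The CArG boxes of Acta1 and Actc1 begin 73 and 47 bases before the start, and the E-box of Mylpf begins 51 bases before it. The pair in Chrng begins 155 and 132 bases before its start. In GENCODE M21 the bounds of Mylpf, Chrng and Actc1 begin further upstream than the RefSeq start, so their windows lie inside those bounds.

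The comparison of members with other cells asked which genes outside the rule went with it. Counts were summed over the members and over the other cells of each sample, the 7 genes were removed, and edgeR's quasi-likelihood test was run with the sample as a block. These genes were measured in the same cells as the rule genes, so the test asks only whether a difference recurred over the 6 samples. Of 14819 genes tested, 2382 were higher in members (16.1%) and 4094 lower (27.6%) at a Benjamini-Hochberg adjusted p under 0.05, or 43.7% in either direction. These shares are the background for the counts of each gene list below. An unadjusted p under 0.05 was found for 51.2%. Of these calls, 36.8% were higher, whereas DESeq2, with 2938 higher and 3131 lower, put 48.4% of its calls higher and edgeR with DESeq2's size factors 44.5%. The median log2 fold change of all genes was -0.16 with edgeR and -0.03 with DESeq2, and changes below are on the edgeR scale. Levels are in CPM, the UMIs of a gene per 1000000 UMIs of the summed cells without the 7 genes.

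By the naming rule, which asks for an average log2 CPM over 5 and the same direction in every sample, the 15 leading higher genes were Mybph, Smpx, Ckm, Tcap, Myl1, Casq2, Tceal7, Myh1, Mb, Myom2, Cox6a2, Smim5, Tnni1, Mymk and Mymx. Their log2 fold changes ran from 8.69 (Mybph, SE 1.08) down to 7.07 (Mymx, SE 0.96). Members of every sample were above the other cells of every sample for each of the 15, as for 2.65% of all genes tested. The 15 were picked as the largest increases, so this lack of overlap was largely fixed by the choice. Muscle creatine kinase, Ckm, was at 37.7, 222 and 75.04 CPM in young members and 27.0, 86.0 and 77.2 CPM in old members. In other cells it was at 0.0917, 0.541 and 0.0421, and 0.0265, 0.609 and 0.263 CPM. Its log2 fold change was 8.59 (SE 0.48), given without a p because few UMIs of Ckm were counted outside members.

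The label was checked with 9 skeletal muscle genes outside the rule: Myog, Mymk, Mymx, Ckm, Ttn, Neb, Tnnt3, Myh8 and Chrng. Myh8 and Ckm had only 0 to 16 and 4 to 103 UMIs in the other cells of a sample, and Myh8 entered the test through the members. With so few UMIs outside members, both count for nothing here. The other 7 had 27 or more UMIs in the other cells of every sample and were higher in members without overlap between the 6 member and 6 other values, as were 2.65% of all 14819 genes tested. Myog was at 1134, 3548 and 2283 CPM in young members and 1449, 1910 and 2632 CPM in old members, against 5.34, 117 and 19.9, and 1.99, 65.8 and 147 CPM in other cells (log2 fold change 6.24, SE 0.97, edgeR adjusted p = 0.00495). Myh8, the perinatal myosin heavy chain, was at 36.6, 2.04 and 52.2 CPM in young and 38.2, 3.94 and 40.3 CPM in old members, and at most 0.128 CPM in other cells. The members are called myocyte-like cells by the levels of Myog, Mymk, Mymx, Ttn, Neb, Tnnt3 and Chrng, which did not choose them.

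Markers of other cell types differed in level in the myocyte-like cells. The summed level of 3 endothelial genes was at most 2.45 CPM, that of 3 immune genes at most 8.99, that of 3 Schwann cell genes at most 1.49 and that of 2 adipocyte genes at most 0.190 CPM. Of these 11 genes 7 could be tested, and none was called, although 1 immune gene was called higher without the low-count filter and 1 lower in thinned cells. Of the 7 cardiac markers, Nppa, Nkx2-5 and Myl7 had no UMI in any member, which allows up to 0.035 CPM, and the list summed to at most 5.27 CPM. Tnni3 and Myh6 were called higher at levels of at most 1.49 and 0.188 CPM, but without young replicate 2 no cardiac gene was called, and without old replicate 2 or 3 or with DESeq2 only 1 was. The fibro-adipogenic list summed to 125 to 395 CPM in members and 225 to 482 CPM in other cells, lower in members of all 6 samples. Of its 6 tested genes, Dcn, Col3a1 and Smoc2 were called lower and none higher, against 27.6% lower over all genes. Under the alternatives 2 to 5 genes of the list were lower.

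The smooth muscle list summed to 1726 to 5043 CPM in members and 20.4 to 516 CPM in other cells, and nearly all of it was Acta2. Of its 6 tested genes, Acta2 and Lmod1 were higher, Rgs5 and Pdgfrb were lower and Myh11 and Actg2 were not called. Over all genes 16.1% were higher and 27.6% lower, so the share of lower genes is near the background. Acta2, the smooth muscle α-actin, which early skeletal muscle also makes, was at 1725, 5033 and 3002 CPM in young and 2797, 2299 and 3555 CPM in old members (log2 fold change 3.94, SE 0.68, edgeR adjusted p = 0.00702). Lmod1, a leiomodin, was at 0 to 8.16 CPM in members and 0.146 to 0.959 CPM in other cells (2.90, SE 0.43). The defining smooth muscle gene Myh11 was at 0.366 CPM or less in members, and the pericyte genes Rgs5 and Pdgfrb were lower (log2 fold changes -1.85, SE 0.35, and -1.72, SE 0.34).

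Of 16 thick filament genes, 14 passed the filter on low counts and all of these were higher, with a median log2 fold change of 6.59; Myl3 and Mybpc2 did not pass it. Some passed through the members alone, such as Myh8, with 0 to 16 UMIs in the other cells of a sample, so this count was partly fixed by the filter. Without the filter 14 of 16 were higher, with a median of 5.59. Myl1, the fast essential light chain, was at 3930, 3446 and 1930 CPM in young and 2871, 867 and 2453 CPM in old members. In other cells it was at 7.38, 103 and 0.859, and 0.907, 15.1 and 18.0 CPM, so members were higher everywhere although the other cells of young replicate 2 stood out (log2 fold change 8.22, SE 1.42, edgeR adjusted p = 0.00719). The adult fast heavy chain Myh1 was at 244, 493 and 55.5 CPM in young and 458, 252 and 110 CPM in old members. The slow heavy chain Myh7 was at 45.7, 5.34 and 48.9, and 40.4, 8.81 and 12.1 CPM. Young replicate 2 and old replicate 2 thus had more Myh1 and less Myh7 and Myh8 than young replicate 3. The giant spring protein titin, Ttn, was at 1202 to 3808 CPM in members and 3.97 to 715 CPM in other cells (log2 fold change 4.76, SE 1.28, edgeR adjusted p = 0.0325). Its call was lost without young replicate 1 or 3 or any of the old replicates (adjusted p 0.0517 to 0.084).

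On the thin filament, 12 of 14 genes were higher, with a median log2 fold change of 4.54. The exceptions were Tpm3, which was lower (-0.77, SE 0.07), and Tmod4, which was not called. The 3 troponin T genes, which tie troponin to tropomyosin, were all raised. Tnnt2, the cardiac and embryonic form, was at 1868, 971 and 1816 CPM in young and 1872, 1324 and 1543 CPM in old members (4.26, SE 0.43). Tnnt1, the slow form, was at 407, 1350 and 1254, and 1175, 538 and 697 CPM (4.97, SE 0.93). Tnnt3, the fast form, was at 1585, 1853 and 1055, and 1555, 817 and 1467 CPM (6.33, SE 1.27). None of these member values overlapped the other cells, whose highest level was 183 CPM, as was so for 2.65% of all genes tested. Tpm1 and Tpm2, the main tropomyosins of muscle, were higher by 1.80 (SE 0.24) and 2.94 (SE 0.28), in contrast to Tpm3.

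All 15 Z disc genes and all 17 genes of calcium handling and excitation-contraction coupling were higher, with medians of 4.44 and 4.20, against 16.1% of all genes tested. Some had few UMIs outside members, such as Tcap, with 36, 69 and 18 in the other cells of young replicates 1 to 3. Without the low-count filter 14 Z disc and 17 calcium genes were called. Without single samples 12 to 14 Z disc genes and 15 to 17 calcium genes were called. Telethonin, Tcap, which caps titin at the Z disc, was at 170, 44.1 and 102 CPM in young and 157, 42.1 and 208 CPM in old members, and at most 1.04 CPM in other cells. Desmin, Des, the intermediate filament that links Z discs, was at 811, 1008 and 215, and 1287, 830 and 669 CPM in members, but already at 353 and 317 CPM in the other cells of young replicate 2 and old replicate 3 (4.23, SE 1.17, adjusted p = 0.0354). The call for Des was lost without young replicate 1 or 3 or old replicate 1 or 2 (edgeR adjusted p 0.0626 to 0.0986), and that for Pdlim3 (4.32, SE 1.32, adjusted p = 0.0482) without any of the 6 samples in turn. Casq2, a calcium store protein of the sarcoplasmic reticulum, was at 150, 107 and 122, and 231, 52.0 and 96.8 CPM in members and at most 0.808 CPM in other cells. The voltage sensor Cacna1s was at 16.2 to 32.6 CPM and the release channel Ryr1 at 58.9 to 137 CPM. Both were above the other cells of all samples, as were 2.65% of all genes tested. Atp2a2, a calcium pump that most cells make, had the smallest change of the list (0.99, SE 0.10).

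Genes of the neuromuscular synapse and of muscle energy metabolism moved the same way. Of 9 synapse genes, 8 were higher, with a median of 2.07, and 6 or 7 were without single samples. Chrng, the fetal γ subunit of the acetylcholine receptor, was at 78.6, 125 and 97.1 CPM in young and 117, 67.8 and 98.6 CPM in old members, against at most 31.0 CPM in other cells (3.44, SE 0.58, edgeR adjusted p = 0.00589). Chrne, the adult subunit that replaces it, was at 0.121 CPM or less in members and was not called. Chrna1 was at 767 to 1758 CPM in members, and other cells of old replicate 3 overlapped this range, at 792 CPM (2.23, SE 0.50). Musk lost its call without young replicate 1 or 3 or old replicate 2 or 3 (edgeR adjusted p 0.0569 to 0.0835). All 15 metabolic genes were higher, with a median of 3.15, against 16.1% of all genes tested, and 14 were without young replicate 1. Ckm is among the 15, but with its few UMIs outside members it counts for nothing here, as above. The metabolic genes ran from Aldoa, a glycolytic enzyme found in most cells (0.89, SE 0.07), to Ckm. They included myoglobin, Mb, at 113 to 265 CPM in members and at most 5.67 CPM in other cells.

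Fusion genes divided into 7 higher, 2 lower and 3 not called, against 16.1% higher and 27.6% lower over all genes. Mymk was at 668, 407 and 381 CPM in young and 905, 298 and 599 CPM in old members, and at 2.29, 5.34 and 0.227, and 2.03, 8.42 and 34.3 CPM in other cells. Mymx was at 84.5, 267 and 160, and 256, 112 and 272 CPM in members. The membrane-shaping gene Cav3 was at 9.51 to 56.7 CPM in members and at most 0.391 CPM in other cells. Few UMIs of Cav3 were thus counted outside members, so its place among the 7 counts for nothing here. Myof and Ehd2, which act in membrane repair and recycling, were lower (-0.33, SE 0.09, and -1.15, SE 0.12), and Myof lost its call without young replicate 1 (edgeR adjusted p = 0.0648). M-cadherin, Cdh15, was at 60.3 to 113 CPM in members and 5.61 to 88.4 CPM in other cells and was not called by edgeR (2.01, SE 0.68, adjusted p = 0.0644), although DESeq2 called it (adjusted p = 0.00105).

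**Figure D3:**
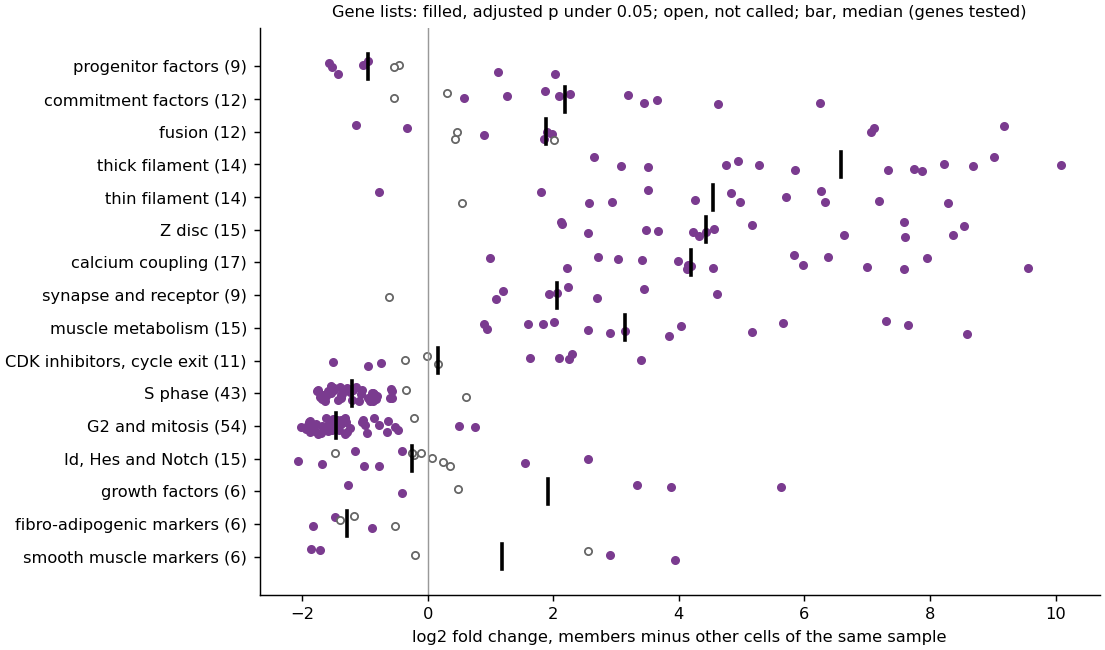
Log2 fold change of each tested gene in members against other cells of the same sample, by gene list (filled, edgeR adjusted p under 0.05; open, not called; black bar, median; number of genes tested in brackets). The thick filament list has the highest median, at 6.59, and the S phase and G2 and mitosis lists lie almost entirely below 0, with medians of -1.21 and -1.46.

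Among commitment factors, 10 of 12 genes were higher, with a median of 2.19, and Six4 and Bhlhe40 were not called. The count fell to between 7 and 9 without single samples. Rbm24 (3.19, SE 0.93) lost its call without any of the young replicates or old replicate 1 or 2, and Myf6 (3.65, SE 0.89) without young replicate 2 or old replicate 2 or 3. Myod1 was at 201, 892 and 474 CPM in young and 544, 922 and 1094 CPM in old members. In other cells it was at 47.7, 422 and 42.5, and 62.6, 433 and 821 CPM, so the members of young replicate 1 were below the other cells of 3 other samples (1.87, SE 0.48, edgeR adjusted p = 0.0264). This call was lost without young replicate 1 or 2 or old replicate 1 or 2 (adjusted p 0.0529 to 0.0689). The 3 samples whose other cells had the most Myod1 were also those with the largest shares of members. Mef2c, a partner of Myog, was at 340 to 781 CPM in members and at most 36.3 CPM in other cells (4.62, SE 0.34). Hes6, which relieves repression by Hes1, was at 947, 1175 and 1175, and 1042, 2133 and 1835 CPM in members and 88.5 to 805 CPM in other cells (2.56, SE 0.36).

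A Myog UMI did not by itself mark a member. Members were 45.5%, 21.3% and 8.06% of the cells with a Myog UMI in young replicates 1 to 3 and 25.6%, 23.9% and 51.6% in old replicates 1 to 3. In the other direction, 85.7% to 98.8% of members had one. With every cell thinned at random to 5000 UMIs, which left out 5 to 96 members and 135 to 266 other cells a sample, the shares were 70.0% to 98.2% of members and 0.435% to 25.3% of other cells. Members were higher in 6 of 6 samples (mean difference 77.2 percentage points ± 6.90 SD, n = 6; exact sign-flip permutation test, at the smallest p that 6 samples allow, adjusted p = 0.0382 over 11 cell measures).

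More progenitor genes were lower than higher. Of 9 tested genes, Pax7, Pax3, Myf5, Cd34 and Vcam1 were lower, Spry1 and Itga7 were higher and Sdc4 and Msx1 were not called. Over all genes 27.6% were lower and 16.1% higher. Calcr had no UMI in any member. Pax7, the defining factor of satellite cells, was at 7.68, 14.4 and 0 CPM in young and 2.25, 5.91 and 15.04 CPM in old members. It was at 9.98, 57.4 and 0.0263, and 12.3, 23.3 and 42.0 CPM in other cells, so young replicate 3 had almost none in either (-1.52, SE 0.20, edgeR adjusted p = 0.000135). In thinned cells a Pax7 UMI was found in 3.88% and 4.97% of members of young replicates 1 and 2 and in 2.46% and 6.43% of those of old replicates 2 and 3. It was found in 0 of 81 and 0 of 30 members of young replicate 3 and old replicate 1, which allows up to 3.70% and 10.0%. This difference, in 5 of 6 samples, did not pass the test (exact sign-flip permutation test, p = 0.0625, adjusted p = 0.0688), and without thinning it did (adjusted p = 0.0344). Itga7, an integrin that anchors both satellite cells and muscle fibres, was at 35.9 to 134 CPM in members (1.12, SE 0.26). Spry1, which restrains growth factor signalling in quiescent satellite cells, was at 9.79 to 39.5 CPM in members and 2.36 to 11.1 CPM in other cells (2.02, SE 0.22).

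Taken over all members of a sample, fewer cells were scored as cycling than among its other cells, in every sample. Of thinned members, 17.5%, 17.2% and 32.1% were scored as S or G2/M in young replicates 1 to 3, compared with 51.3%, 63.6% and 80.5% of other cells. In old replicates 1 to 3 the shares were 20%, 5.75% and 43.5% of members and 64.0%, 39.1% and 62.6% of other cells. The mean difference was -37.5 percentage points ± 11.02 (SD, n = 6; exact sign-flip permutation test, adjusted p = 0.0382). Unthinned values were 4.23% to 44.8% of members. Old replicate 3 stood apart, with more members in S or G2/M than any other sample and the smallest gap to its other cells. Cells with a Mki67 UMI made up 3.88%, 3.77% and 7.41% of members in young and 10.0%, 1.64% and 12.2% in old samples, below the other cells of the same sample (13.7% to 33.1%) in all 6.

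The gene lists gave the same direction. Of 43 S phase genes, 41 were lower and none higher (median -1.21), and of 54 G2 and mitosis genes, 51 were lower and 2, Jpt1 and Cbx5, were higher (median -1.46). Without single samples 37 to 41 S phase and 46 to 51 G2 and mitosis genes were lower. With only the samples of 100 or more members these counts were 37 and 39. Over all genes 27.6% were lower. The summed level of the S phase genes was 603 to 1552 CPM in members and 1361 to 2694 CPM in other cells. Pcna, the replication clamp, fell from 102 to 176 CPM in other cells to 33.4 to 111 CPM in members (-1.21, SE 0.13). When only cells scored G1 by these same genes were compared, a choice made after the data were seen, 20 S phase and 24 G2 and mitosis genes were lower and 2 of each were higher. Of all 13589 genes tested in G1 cells, 3451 were lower and 2372 higher. All 14 thick filament and all 17 calcium genes were called higher there, with medians of 6.28 and 4.19, as were 14 of 15 Z disc genes.

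**Figure D4:**
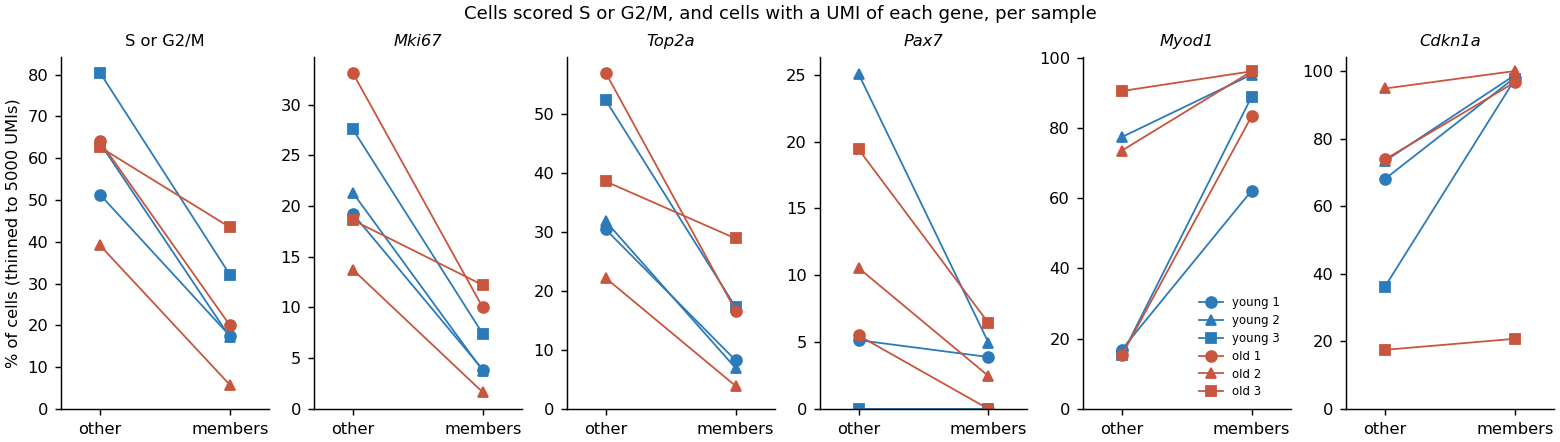
Percentage of thinned cells scored as S or G2/M and percentage with a UMI of Mki67, Top2a, Pax7, Myod1 and Cdkn1a, in other cells and members of each sample (blue, young; red, old; each line is 1 sample). The first 3 measures fall and Myod1 and Cdkn1a rise from other cells to members in all 6 samples, and Cdkn1a in old replicate 3 stays near 20%.

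Inhibitors of cyclin-dependent kinases did not move as a group. Of 11 genes of cycle exit, 5 were higher, 3 lower and 3 not called, against 16.1% higher and 27.6% lower over all genes, so the share of lower genes is near the background. Cdkn1a, which encodes p21, was at 1986, 2360 and 1055 CPM in members of young replicates 1 to 3 and at 2334 and 4831 CPM in those of old replicates 1 and 2. In old replicate 3 it was at 166 CPM, below the other cells of 4 samples, and 20.8% of thinned members had a UMI there, compared with 96.7% to 100% elsewhere. Within each sample members exceeded other cells, which were at 329, 423 and 117, and 405, 1499 and 88.1 CPM (2.25, SE 0.29, edgeR adjusted p = 0.0019). Cdkn1c, which encodes p57, was at 62.0 CPM in members of young replicate 3 and at 0 to 9.75 CPM in the other 5 (3.39, SE 0.54). Rb1, the retinoblastoma protein, was at 67.4 to 115 CPM in members and 12.2 to 38.4 CPM in other cells (2.10, SE 0.18), and Ccnd3, the cyclin D of differentiating muscle, at 151 to 295 and 50.9 to 144 CPM (1.63, SE 0.17).

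The lower inhibitors were Cdkn1b, Cdkn2a and Cdkn2b. Cdkn2a was at 3.66, 3.30 and 4.89 CPM in young members and 13.5, 8.72 and 391 CPM in old members. Other cells had 12.5, 13.2 and 7.23, and 107, 33.6 and 548 CPM (-1.51, SE 0.32, edgeR adjusted p = 0.00821). Old replicate 3, which had the least Cdkn1a in its members, thus had by far the most Cdkn2a in members and in other cells alike. Cdkn2b fell by 0.95 on the log2 scale (SE 0.18).

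Under the same limits on expression and direction, the 15 genes with the largest decreases were Prl2c2, Hist1h1b, Eps8, Ebf1, Tm4sf1, Hmmr, Klra4, Cenpe, Pla2g4a, Hmga2, Ier3, Grem1, Mki67, Pbk and Alcam. Their log2 fold changes lay between -2.32 (Prl2c2, SE 0.21) and -1.84 (Alcam, SE 0.10), much smaller than the increases at the top of the other direction. Hist1h1b, Hmmr, Cenpe, Mki67 and Pbk act in chromatin or mitosis. Hmga2, a chromatin protein of embryonic and growing cells, was at 222, 57.0 and 223 CPM in young and 171, 23.1 and 78.0 CPM in old members, and at 581, 249 and 684, and 771, 142 and 259 CPM in other cells (-1.92, SE 0.13, edgeR adjusted p = 4.13e-06). Tm4sf1, a membrane protein of migrating cells, was at 10.5 to 337 CPM in members and 41.2 to 1168 CPM in other cells (-2.04, SE 0.13). Of the 15, only Cenpe and Mki67 had no overlap between all member and all other values. Over all genes tested, 2.36% were lower in members without overlap. Prl2c2 and Klra4 have near-identical copies, so their reads may be split. Pbk was not called without young replicate 2 (edgeR adjusted p = 0.0738), and in G1 cells Hist1h1b was not called either (-0.43, adjusted p = 0.263).

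Signalling genes that hold progenitors back gave no common direction. Of 15 Id, Hes and Notch genes, Hes6 and Dll1 were higher, 6 were lower and 7 were not called, against 16.1% higher and 27.6% lower over all genes. With DESeq2 4 were higher and 4 lower, and with its size factors in edgeR 4 and 5. The Notch ligand Jag1 was at 4.49 CPM or less in members (-2.07, SE 0.28), and the repressor Twist1 was lower by a log2 fold change of -1.69 (SE 0.19). Dll1 lost its call without young replicate 1 or 2 or old replicate 1 or 3, and in G1 cells, and Notch3 without old replicate 2 or 3, with DESeq2 (adjusted p = 0.171) and against other cells without a UMI of the 7 rule genes. Id1, an inhibitor of Myod1, was at 319 to 993 CPM in members and 176 to 1186 CPM in other cells and was not called by edgeR (0.24, SE 0.11, adjusted p = 0.0805), although it was higher with DESeq2 (adjusted p = 0.0287) and in edgeR under 5 alternatives, among them DESeq2's size factors and leaving out old replicate 3 (adjusted p 0.0204 to 0.0497). Of 6 tested growth factor genes, Igf2, Fst and Mstn were higher, Igfbp4 and Igf1r were lower and Igfbp5 was not called. Only 1 gene of this list was lower with DESeq2, without the filter, in thinned cells, and without young replicate 1 or 3 or any of the old replicates. Fst, which encodes the myostatin antagonist follistatin, was at 175, 89.8 and 160, and 258, 198 and 134 CPM in members and at most 21.6 CPM in other cells (3.87, SE 0.48). Igf2 was at 431 CPM in members of young replicate 3 but at 0.550 CPM in those of young replicate 2, and members exceeded other cells in all 6 samples (3.34, SE 0.51). In old replicate 1 it was found only in members with a 7-gene sum of 400 or more, at 5.67 CPM, and in no other cell. The direction in young replicate 2 and old replicate 1 thus rests on very few UMIs.

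Among themselves, members with a higher 7-gene sum had more RNA of fusion and maturation genes. This is a description, because the sum defines the cells. The members were divided at sums of 50, 100, 200 and 400 per 10000 UMIs, and young replicates 1 and 2 and old replicates 2 and 3 had 20 or more members in each of the 5 bins. From the lowest to the highest bin in these samples, Mymk went from 91.0 to 1243, from 94.3 to 891, from 105 to 823 and from 135 to 1207 CPM, and it increased at every step. Ckm went from 5.35 to 93.6, from 27.1 to 477, from 24.9 to 210 and from 2.90 to 192 CPM. Myog also was highest in the top bin in 3 of the 4, at 2069, 3040 and 3925 CPM. In young replicate 2 it peaked at 4134 CPM one bin earlier. Chrng went from 13.4 to 116, from 62.6 to 183, from 47.5 to 102 and from 52.0 to 164 CPM.

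The cycling share was lower in the highest bin than in the lowest in all 4 samples, but it did not fall at every step. From the lowest to the highest bin it went from 30.0% to 4.12% in young replicate 1, from 44.3% to 5.92% in young replicate 2, from 10.2% to 4.35% in old replicate 2 and from 66.8% to 14.4% in old replicate 3. Young replicate 1 had its highest share, 37.04%, in the next-to-lowest bin, and in old replicate 2 the lowest share, 1.87%, came one bin before the top. In old replicate 3 a majority of members were therefore scored as S or G2/M in each of the bins below a sum of 200. Its bins of 20 to 50 and 50 to 100, with 582 and 602 members, had shares of 66.8% and 63.7%. These were no lower than the 62.6% of its other cells. In young replicates 1 and 2 and old replicate 2 every bin was below the other cells of the sample, at 51.3%, 63.6% and 39.1%. Cdkn1a went from 809 to 2962, from 1421 to 2649, from 4266 to 5125 and from 86.6 to 274 CPM. Id3 fell from 1044 to 512, from 1459 to 803 and from 2350 to 922 CPM in 3 of the samples, but went from 353 to 526 CPM in young replicate 1. Median depth in the lowest and highest bins was 13188 and 9576 UMIs in young replicate 1 and 13730 and 13707 in old replicate 3.

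**Figure D5:**
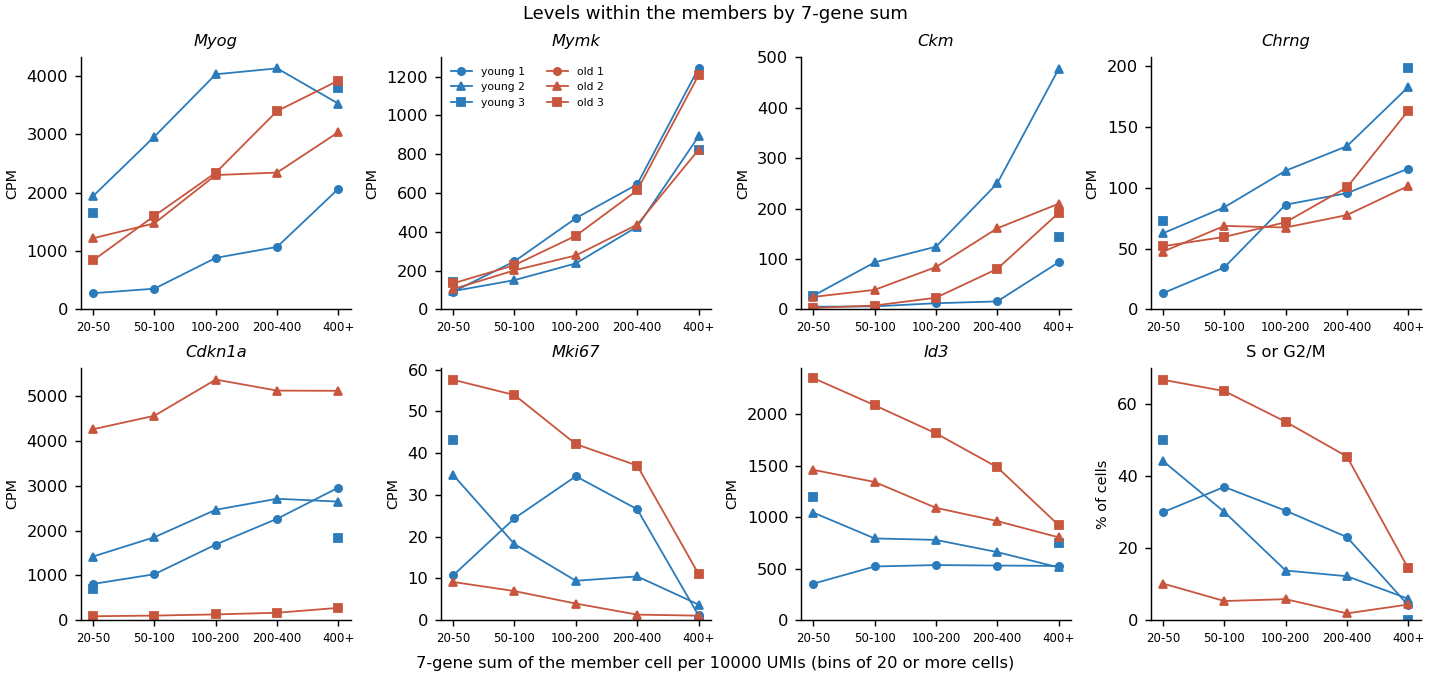
CPM of 7 genes, and percentage of thinned cells scored as S or G2/M, in members grouped by their 7-gene sum per 10000 UMIs (bins with 20 or more cells; blue, young; red, old; marker shape, replicate). Mymk, Ckm and Chrng are higher in the highest bin than in the lowest in each sample drawn with both, and the S or G2/M share is lower; old replicate 1 is not drawn because it had under 20 members in each bin.

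A few per-cell measures outside the gene lists also differed in the same direction within every sample, although the ranges of members and other cells over the samples overlapped. The median mitochondrial share of UMIs was 3.90%, 3.86% and 3.90% in young and 2.65%, 3.13% and 2.72% in old members, and 2.36% to 3.06% in other cells, with members higher in 6 of 6 samples (exact sign-flip permutation test, adjusted p = 0.0382). At 5000 UMIs per cell, members had a median of 1761 to 1998 detected genes, fewer than other cells in 6 of 6 samples, by 86.2 on average (same test and adjusted p). The part of the lower complexity that comes from the abundant contractile transcripts was not tested.

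Age group was not used to choose members, so old and young members were compared over all genes, with a term for the gene list used in counting. Of 11465 genes tested, 2 were higher in old members (0.0174%) and 2 lower (0.0174%), or 0.0349% in either direction, by edgeR's quasi-likelihood test. An unadjusted p under 0.05 was found for 453 genes (3.95%). For the 7 rule genes, whose levels chose the members, values are given without a test. Their log2 fold changes, old over young, were -0.12 (SE 0.50) for Myl4, 0.23 (SE 0.41) for Tnnc1, -0.21 (SE 0.71) for Tnnc2, -0.67 (SE 0.66) for Actc1, -0.17 (SE 0.38) for Acta1, -0.07 (SE 0.28) for Myh3 and -0.01 (SE 0.43) for Mylpf. No gene of the other lists was called, and the medians were -0.29 for thick filament, -0.32 for thin filament, -0.02 for Z disc and 0.25 for calcium genes, compared with 0.00493 over all genes. DESeq2 called 20 genes higher and 9 lower.

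Fgf13 and Arhgdib met the naming rule for this comparison. Fgf13, an intracellular member of the FGF family, was at 0.732, 3.22 and 7.34 CPM in young members and 67.4, 130 and 93.4 CPM in old members (4.97, SE 0.43, edgeR adjusted p = 0.0315). Arhgdib was at 125, 202 and 135 CPM in young and 18.0, 8.34 and 9.84 CPM in old members (-3.91, SE 0.38, adjusted p = 0.0490). The other 2 called genes are named after their values were seen. Alox5, a lipoxygenase that starts leukotriene synthesis, had 2 UMIs in young members and 5071 in old members, a pooled ratio of 613 (exact 95% interval 170 to 5070, counting error only). It entered the test through the old members, so its call was partly fixed by the filter and no p is given. Old replicate 3, with 71.0% of all members, weighs most in this ratio. The fitted log2 fold change was 8.94 (SE 0.53) and 12.26 without young replicate 2, which held both young UMIs, so its size is not determined. Asb4 was at 9.88, 20.98 and 63.6 CPM in young and 0, 0.656 and 0.709 CPM in old members (-5.77, SE 0.59). It had 48 UMIs in all old members and entered the test through the young ones, so it is also given without a p. For each of the 4 called genes the young and old member values did not overlap, as for 6.13% of all genes tested. Other cells of the same samples also separated by age for Alox5, Fgf13 and Arhgdib, whereas for Asb4 they overlapped, at 6.88 CPM in young replicate 1 and 9.53 CPM in old replicate 1. In other cells Alox5 was at most 0.120 CPM in young and 19.02 to 95.9 CPM in old samples, and Arhgdib at 79.8 to 132 and 2.25 to 20.9 CPM.

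Each of the 4 calls was lost without some single samples, while the log2 fold changes of Fgf13 stayed between 4.68 and 5.29 and those of Arhgdib between -4.16 and -3.51. Without young replicate 1 or old replicate 1, which leaves a single sample on the shorter gene list, none of the 4 was called (adjusted p 0.18 to 0.324). Alox5 also lost its call without young replicate 2. Fgf13 lost it without young replicate 2 or old replicate 3, Arhgdib without young replicate 2 or old replicate 2 or 3, and Asb4 without young replicate 3 or old replicate 2 or 3 (adjusted p 0.053 to 0.303). Without the gene list term Fgf13 and Asb4 were not called (adjusted p 0.101 and 0.131). The replicate number was also used as a block in place of the gene list, although the labels state no such pairing. All 4 were then called among 9 higher and 2 lower genes, and Dpp6 joined the genes meeting the naming rule (4.99, SE 0.56, edgeR adjusted p = 0.039). Dpp6 was at 0, 2.99 and 2.45 CPM in young and 42.7, 57.4 and 95.9 CPM in old members.

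The interaction of cell state and age asked whether the step from other cells to members differed between old and young samples. Of 14819 genes tested, none was called higher (0%) or lower (0%) by edgeR, and 488 (3.29%) had an unadjusted p under 0.05, while DESeq2 called 3, all lower. With the replicate number as a block, 1 gene had a higher and 13 genes a lower log2 difference, members over other cells, in old than in young samples. Tnnt2, Car3, Fabp7 and Spp1 of these met the naming rule. Tnnt2 had a step smaller by 0.72 on the log2 scale (-0.72, SE 0.13, edgeR adjusted p = 0.0109). Its other cells were at 115, 18.9 and 94.95 CPM in young and 183, 45.6 and 154 CPM in old samples, against the member levels given above. The steps of Car3 and Fabp7 were also lower in old samples (-1.65, SE 0.24, and -1.75, SE 0.31), and Spp1, which was lower in members of all samples, had a smaller decrease in old ones (0.52, SE 0.10). Without young replicate 2, 6 genes were called lower in the fit without the block.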

How the data were processed

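The authors deposited whole-number UMI counts per gene and barcode for 3 young and 3 old samples, made with 10x 3′ v3.1 kits per the labels and with Cell Ranger 7.0.0 (young and old replicate 1, 21849 features) or 7.2.0 (32285 features) per the file headers. The submitters' processing notes name Cell Ranger 7.2.0, Seurat 5.134 and mm10. Barcodes with 1000 or more UMIs and under 15% mitochondrial UMIs were kept (61675 of 62849; 133683424 to 196258384 UMIs a sample). The members and gene lists were chosen with earlier results of these data known.

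Counts were summed per sample and state over 21485 shared Ensembl identifiers and tested with edgeR 4.0.16 (TMM, filterByExpr, robust, R 4.3.3). Each SE was derived from the fold change and its F statistic. Phases were scored with scanpy 1.11.5 (43 S and 54 G2/M genes). Named genes were the rule and list genes, the 15 largest changes each way (adjusted p under 0.05, average log2 CPM over 5, same direction in every sample) and, for age, up to 8 each way. Alternatives were DESeq2 1.42.0, its size factors, filters, member limits, thinning and each sample left out. The labels do not state that samples of the same number belong together, so the replicate block is an alternative only. Members' deviations from their group means correlated at 0.301, 0.288 and 0.184 for numbers 1, 2 and 3 (10930 genes). For unlike numbers the correlations ran from -0.277 to 0.09. Deviations within a group of 3 cancel out, so higher values for like numbers pull the unlike ones down. These values therefore do not settle whether the numbers are pairs. Both replicates 1 also share a gene list and a Cell Ranger version. The script was tested on simulated data. The labels number biological replicates without saying whether each came from its own mice, so p-values measure the spread between these 6 samples, which may be partly technical. Doublets were not removed. Intervals cover counting error only.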

Additional observations from a re-analysis of the deposited data

Results flagged for a closer look

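H19, an imprinted RNA gene that is strongly made in developing muscle (ENSMUSG00000000031; chromosome 7, 142575529 to 142578143 in GRCm38), is on the longer gene list only and so entered no comparison above. In the 4 samples counted on that list it was at 978 and 638 CPM in members of young replicates 2 and 3 and at 1304 and 1316 CPM in members of old replicates 2 and 3. Other cells of the same samples had 160, 28.3, 211 and 567 CPM, so members were higher in 4 of 4 samples. The difference was not tested.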

How the results depend on the processing

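Over 16 alternatives each, the counts of genes higher and lower in members stayed within 1.5 times those reported, and without single samples they ran from 2037 to 2331 and from 2932 to 3813. Of 6476 calls, 4975 to 5899 were called again without single samples, and none of them changed sign. The gap in member share kept an exact permutation p = 0.7 under other limits and thinning, and the same gap of 8.71 points had an exact sign-flip p = 1.0 with the replicate block over 3 pairs. Without single samples it ran from -0.21 to 14.5, and on the shorter list alone (chosen after seeing the data, 1 sample a group) it was -2.15 points. The lower Pax7 share passed the test only without thinning (-15.8 points, adjusted p = 0.0344); 5 samples cannot reach p under 0.05 in the sign-flip test, so leaving samples out gave values only.

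The age calls in members depended on the model. Higher and lower calls numbered 20 and 9 with DESeq2, 9 and 4 without the low-count filter, 1 and 1 without the gene list term, and 9 and 2 with the replicate block; without single samples they ran from 0 to 9 and from 0 to 1. The interaction gave 3 lower calls with DESeq2, 1 higher and 13 lower with the replicate block, and 0 higher and 0 to 6 lower without single samples. The cause was not tested. The block was fitted for these results and the member share only; members and other cells were compared with the sample as the block. Members of old replicate 1 (35 cells, 460076 UMIs) and young replicate 3 (93 cells, 1252888 UMIs) limit the depth of every comparison.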
